A study of Rattus norvegicus with 24 samples.

Results

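The genes described are 10 monooxygenase genes of the lung, Cyp1a1, Cyp1b1, Cyp2a3, Cyp2b1, Cyp2e1, Cyp2f4, Cyp2s1, Cyp4b1, Fmo2 and Por. They were chosen by symbol from the array's accessions, with earlier results of these data known. Of the 10 genes, 9 were found on the array by 12 features (an array feature is the sequence spotted for a transcript) among 30367. The filter on dim signals was passed by 8, among the 12500 genes with a symbol that were tested. No feature matched Cyp2b1 by accession, and Cyp1a1 did not pass the filter. The data are one-colour arrays of whole-lung RNA, labeled with Cy3, from 24 Fischer-344 rats of both sexes. The rats were about 7 to 8 weeks old before the exposure, which took place in a nose-only chamber, and the lungs were taken after it. The control group breathed filtered clean air, and the other groups inhaled hexanal, an aliphatic aldehyde of indoor air, at 600 ppm (low dose), 1000 ppm (middle dose) or 1500 ppm (high dose) for 4 h a day on 5 days a week. Males and females were 3 each in every group. Sources disagree on whether the whole exposure lasted 4 or 5 weeks and on the unit of the concentration, and the ppm of the sample labels' group names are used here.

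Cytochrome P450 enzymes insert an oxygen atom into small molecules and receive the electrons for it from NADPH through P450 oxidoreductase, the product of Por. Flavin-containing monooxygenases, the family to which Fmo2 belongs, oxidize nitrogen and sulfur atoms of foreign compounds without that reductase. In the lung, much of the P450 content lies in club cells, the secretory cells of the small airways, and in the lung these enzymes both clear inhaled compounds and convert some of them to reactive products. The comparison asks whether inhaled hexanal changed the RNA of these enzymes at each dose, and whether males and females differed.

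The promoters below are shown for the genes on which the results turn: Cyp4b1, the gene called at the high dose, Cyp2f4, Cyp2a3 and Cyp2s1, which varied together from rat to rat and lie in the same P450 cluster of chromosome 1, and Cyp1b1, an Ahr target that is described by sex. They are RefSeq windows of the rat assembly GRCr8, from 250 bases before to 50 after the annotated start of transcription, written 5′ to 3′ on the strand of the gene, and 9 of the 10 genes, all but Cyp1a1, had an entry. The array was designed on another assembly, so no position of an array feature is given. Cyp4b1 is at chr5:134393067-134393366 on the minus strand, Cyp2f4 at chr1:91543518-91543817 on the plus strand, Cyp2a3 at chr1:91299334-91299633 on the plus strand, Cyp2s1 at chr1:90453024-90453323 on the minus strand and Cyp1b1 at chr6:21094315-21094614 on the plus strand. Capitals mark a match, on either strand, to one of 5 sets of letters that were searched.
Cyp4b1: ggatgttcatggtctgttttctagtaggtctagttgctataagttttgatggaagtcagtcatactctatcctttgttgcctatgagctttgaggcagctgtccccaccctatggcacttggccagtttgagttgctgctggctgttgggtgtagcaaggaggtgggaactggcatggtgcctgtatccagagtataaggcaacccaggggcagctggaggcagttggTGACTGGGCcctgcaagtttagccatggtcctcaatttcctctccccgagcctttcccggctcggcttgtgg
Cyp2f4: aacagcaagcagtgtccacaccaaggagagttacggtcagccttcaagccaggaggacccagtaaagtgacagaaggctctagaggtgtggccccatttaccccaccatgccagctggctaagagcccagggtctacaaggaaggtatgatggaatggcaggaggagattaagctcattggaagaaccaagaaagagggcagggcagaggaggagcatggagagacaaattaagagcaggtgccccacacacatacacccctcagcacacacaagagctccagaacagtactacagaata
Cyp2a3: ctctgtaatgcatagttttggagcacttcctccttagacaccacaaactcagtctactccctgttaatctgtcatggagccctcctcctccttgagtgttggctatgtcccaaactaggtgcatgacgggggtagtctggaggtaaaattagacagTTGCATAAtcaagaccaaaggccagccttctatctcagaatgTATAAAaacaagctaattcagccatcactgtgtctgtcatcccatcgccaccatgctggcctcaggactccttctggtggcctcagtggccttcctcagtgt
Cyp2s1: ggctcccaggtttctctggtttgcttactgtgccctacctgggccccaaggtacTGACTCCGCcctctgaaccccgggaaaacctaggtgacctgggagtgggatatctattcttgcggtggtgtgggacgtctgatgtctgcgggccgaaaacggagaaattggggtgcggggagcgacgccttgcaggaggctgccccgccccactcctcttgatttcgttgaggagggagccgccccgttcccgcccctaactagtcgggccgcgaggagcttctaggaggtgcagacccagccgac
Cyp1b1: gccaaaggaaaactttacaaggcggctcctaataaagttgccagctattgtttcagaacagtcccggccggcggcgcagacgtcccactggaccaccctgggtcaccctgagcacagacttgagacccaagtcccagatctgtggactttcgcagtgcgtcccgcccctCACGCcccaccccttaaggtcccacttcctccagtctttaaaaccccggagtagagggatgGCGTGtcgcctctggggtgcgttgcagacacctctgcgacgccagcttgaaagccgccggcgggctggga
The letters were GCGTG, the core that the aryl hydrocarbon receptor (Ahr) binds, TGACNNNGC, the antioxidant response element, TGTTTAC, a forkhead site, TTGCNNAA, a C/EBP site, and TATAAA, the TATA box. In these windows no match of one set overlapped a match of another. GCGTG was found in 3 of 9 member promoters (Cyp1b1, Cyp2b1 and Por) and in 29.7% of 33469 promoters of the same length. Cyp1b1 had 2 matches, 81 and 20 bases before the start. TGACNNNGC was found in 2 of 9 (Cyp2s1 and Cyp4b1, in Cyp4b1 at 22 bases before the start) and in 12.1% of all promoters. TTGCNNAA was found in 4 of 9 (Cyp2a3, Cyp2b1, Cyp2e1 and Fmo2) and in 10.6%, TATAAA in 2 of 9 (Cyp2a3 and Cyp2e1) and in 14.2%, and TGTTTAC in 1 of 9 (Cyp2b1) and in 3.78%. The Cyp2f4 window held none of these letters. A match describes the letters in the window and is not a measured binding site.

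Levels are log2 signals minus the log2 of the 75th percentile of the same array (1701 to 3130 over the arrays), so 0 is the 75th percentile and a difference of 1 is 2-fold. The levels of different genes are not set against each other, because each array feature has its own brightness. Between 70.7% and 81.9% of features were well above background on an array, no feature was saturated, and the number of arrays limits the precision. Defining genes of lung were bright, as the surfactant gene Sftpc had a mean level of 7.78 and the club cell gene Scgb1a1 one of 6.97 in control rats. The 24 arrays lay on 6 slides of 4, each with 1 sex. No slide held both a control rat and a rat of the middle or high dose, so dose and slide could be separated only through the rats of the low and middle dose that link the slides.

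A gene was called at a difference of at least 1.5-fold and an unadjusted limma p under 0.05, which is the threshold of the study's methods, and adjusted p-values (Benjamini-Hochberg) are over all 21261 features tested. For the low dose 0 of 8 monooxygenase genes were called, beside 0.607% of all features. At the middle dose 1 of 8 was called, Cyp2f4, which was higher, beside 1.63%. At the high dose 1 of 8 was called, Cyp4b1, which was lower, beside 1.23%. No member had an adjusted p under 0.05 at any dose, where 0%, 0.0188% and 0.0047% of all features had one at the low, middle and high dose. By the unadjusted limma p alone, 0, 2 and 1 of the 8 were under 0.05 at these doses, Por being the other gene at the middle dose, beside 4.35%, 8.97% and 6.95% of all features. The members' median difference from control was 0.17 at 600 ppm, 0.16 at 1000 ppm and -0.05 at 1500 ppm, beside 0.00, 0.01 and 0.01 over all features. Higher than control were 7 of the 8 genes in the 600 ppm group, 5 in the 1000 ppm group and 2 in the 1500 ppm group, and the others were lower. Of all features 49.9%, 51.4% and 53.6% were higher at these doses. The 3 doses share the same control rats, and some members varied together from rat to rat, so the counts of members are not independent. Without scaling between arrays (the authors' table), 8 of 8 were higher at 600 and at 1000 ppm, where the median of all features was itself shifted by 0.07 and 0.11, and 2 were higher at 1500 ppm.

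**Figure D1:**
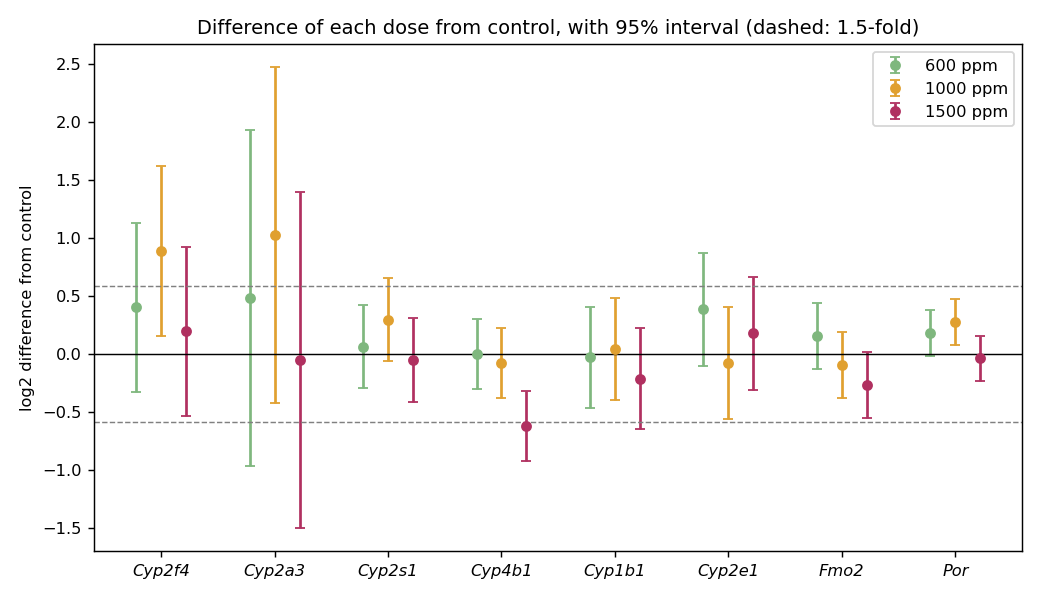
Difference of each dose from control (log2 scale, y axis) for the 8 genes (x axis), with points for the fitted differences of 6 rats against 6 and bars for 95% intervals from limma, and dashed lines at 1.5-fold. The intervals of Cyp4b1 at 1500 ppm and of Cyp2f4 and Por at 1000 ppm leave out 0, and those of Cyp2a3 are the widest of the 8.

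Cyp4b1 encodes a lung P450 that oxidizes fatty acids and converts some plant toxins to reactive products. Its level lay between 1.96 and 2.85 (median 2.21) in the control rats, between 1.93 and 2.77 (median 2.31) at 600 ppm and between 1.83 and 2.54 (median 2.28) at 1000 ppm. At 1500 ppm it lay between 1.51 and 1.96 (median 1.70). All 6 high-dose rats were below the lowest control rat, though narrowly, with the highest at 1.956 against 1.960. The low- and middle-dose groups overlapped the control group. The share of all features with such a separation was not counted. The high-dose difference was -0.62 on the log2 scale (SE 0.14, 95% interval -0.92 to -0.32), which is 1.54-fold lower. Its limma p was 0.000284 with an adjusted p of 0.189, ranking 32 of 21261 features. The exact permutation test of 6 rats against 6 (two-sided) gave p = 0.00216, the smallest it can give, among 24 such tests of 8 genes at 3 doses. At 600 and 1000 ppm the differences were 0.00 (95% interval -0.30 to 0.30) and -0.08 (-0.38 to 0.22), and the latter was 0.33 (SE 0.21) with the slide as a fixed block. The fitted slope over all 4 groups was -0.39 per 1000 ppm (SE 0.10, limma adjusted p = 0.304).

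In males the mean Cyp4b1 level was 2.56 ± 0.32 (SD, n = 3) in control rats and 1.80 ± 0.15 at 1500 ppm, and in females it was 2.10 ± 0.12 and 1.63 ± 0.11. Both sexes were lower, and the test of their difference gave -0.29 (male minus female, SE 0.26, limma adjusted p = 0.575). On the male slide that held the high-dose rats, the 1 middle-dose rat was at 1.83, within the range of the high-dose rats, and the high-dose mean minus that rat was -0.03. On the corresponding female slide, the 1 middle-dose rat was at 2.32 and the high-dose mean was lower by 0.69, a difference of -0.69. With the slide as a fixed block the high-dose difference was -0.03 (SE 0.26), and as a random block -0.50 (SE 0.17), so that Cyp4b1 no longer passed the 1.5-fold threshold in either fit. Dose and slide could therefore be told apart only in part. The summed level of club cell markers did not separate the groups at this dose, with a median of 203 (range 179 to 339, 75th percentile of the array = 1) against 203 (174 to 250) in control rats, although 6 of the 7 club cell markers tested were higher, with 0 called. Of the alveolar type II cell markers 8 of 9 were lower, with 0 called, and all 4 erythroid cell markers tested were lower, with 1 called, Alas2. Higher were 1 of 7 macrophage, 3 of 9 endothelial and 1 of 5 liver markers, and 9 of 9 heart muscle and 6 of 6 ciliated cell markers. Over the 24 rats, after the mean of each dose and sex was subtracted, Pearson r of Cyp4b1 was -0.06 with the summed type II markers. It was -0.20 with the summed erythroid markers. The part of these cell types in the Cyp4b1 difference was not tested. In whole-lung RNA, fewer cells of a type and less RNA per cell cannot be told apart.

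**Figure D2:**
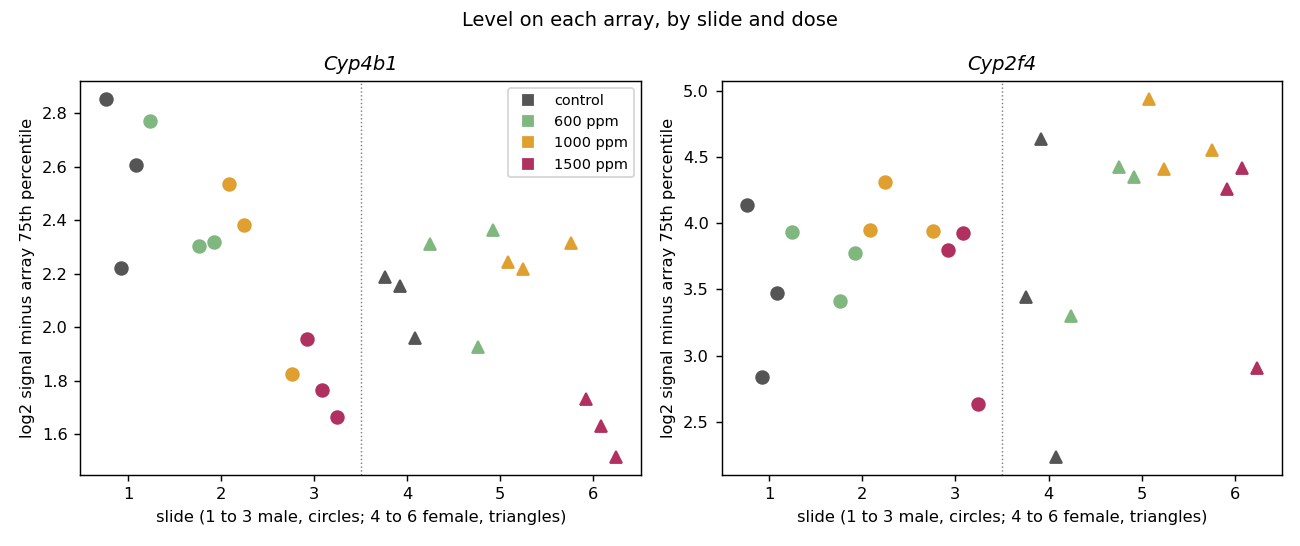
Level of Cyp4b1 and Cyp2f4 (log2 signal minus the array's 75th percentile, y axes) on each of 24 arrays, by slide (x axes) and dose (colors), with circles for males and triangles for females. For Cyp4b1 the high-dose rats of slides 3 and 6 lie between 1.51 and 1.96, and the middle-dose rat on slide 3 lies at 1.83 while that on slide 6 lies at 2.32.

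Cyp2f4 encodes a P450 of club cells that turns naphthalene and styrene into reactive epoxides. Its level was 2.24 to 4.63 (median 3.46) in control rats, 3.30 to 4.42 (median 3.85) at 600 ppm, 3.94 to 4.94 (median 4.36) at 1000 ppm and 2.64 to 4.42 (median 3.86) at 1500 ppm. The 6 middle-dose rats were all above the control median, and 1 of them was above every control rat, so the groups overlapped. The middle-dose difference was 0.89 (SE 0.35, 95% interval 0.16 to 1.62), which is 1.85-fold higher, with a limma adjusted p of 0.516, and the two-sided exact permutation test gave p = 0.0433. The difference was 0.40 (-0.32 to 1.13) at 600 ppm and 0.20 (-0.53 to 0.93) at 1500 ppm. Without control rat 23, the lowest of all at 2.24, the middle-dose difference was 0.64 (limma unadjusted p = 0.0669) and the gene was no longer called. With the slide as a fixed block it was 0.57 (SE 0.67), and as a random block 0.78 (SE 0.42).

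Marker lists of several cell types were set beside the Cyp2f4 difference at the middle dose, and their summed levels overlapped those of the control rats. Of 9 listed club cell markers 8 were on the array and 7 were tested, and their summed level was 214 to 290 (median 259) at 1000 ppm against 174 to 250 (median 203) in control rats, with 6 of 7 genes higher and 2 of them called. The 2 were Scgb3a1 (difference 2.95) and Bpifb1 (2.39), whose levels varied widely between rats, from -3.16 to 4.76 and from -3.39 to 2.48. All 6 ciliated cell markers tested, of 10 listed, were higher, with 1 called, and their summed level was 68.3 to 94.3 against 63.4 to 81.5. Scgb1a1, whose feature was the brightest of the club cell markers tested, differed by -0.03, and by -0.16 and -0.15 at 600 and 1500 ppm. All 9 heart muscle markers tested, of 10 listed, were higher at this dose, with 5 called, and their summed level was 8.67 to 132 against 3.54 to 37.8. All 7 smooth muscle cell markers were higher, with 1 called, and 7 of 9 endothelial cell markers were lower, with 0 called. The part of these cell types in the Cyp2f4 difference was not tested.

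Cyp2a3, a P450 of lung and olfactory mucosa that acts on nicotine-related compounds and coumarin, varied most from rat to rat among the 8 genes. Its level was -4.63 to -0.45 (median -1.85) in control rats, -3.85 to 0.14 (median -1.45) at 600 ppm, -1.94 to 0.08 (median -1.15) at 1000 ppm and -3.61 to -0.60 (median -1.76) at 1500 ppm. The groups overlapped at every dose. The middle-dose difference was 1.03 with a 95% interval of -0.42 to 2.47. Its direction turned with the slide as a fixed block, which gave -0.37 (SE 1.21), and leaving out each rat in turn gave 0.51 (without control rat 23) to 1.35. At 600 and 1500 ppm it was 0.49 (-0.96 to 1.93) and -0.05 (-1.50 to 1.40). Cyp2s1, a P450 of airway epithelium that Ahr activators induce, had a level of 0.64 to 1.56 (median 1.17) in control rats and 1.05 to 1.83 (median 1.41) at 1000 ppm, and 2 of 6 rats were above every control rat. Its middle-dose difference was 0.30 (95% interval -0.06 to 0.66). Its other 2 features gave 0.36 (SE 0.14, limma unadjusted p = 0.0147) and 0.30 (SE 0.21, limma unadjusted p = 0.166). At 600 and 1500 ppm it was 0.07 (-0.29 to 0.42) and -0.05 (-0.41 to 0.31).

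After the mean of each dose and sex was subtracted, Cyp2f4, Cyp2a3 and Cyp2s1 followed each other over the 24 rats. Pearson r was 0.92 for Cyp2f4 and Cyp2a3, 0.81 for Cyp2f4 and Cyp2s1, and 0.65 for Cyp2a3 and Cyp2s1, and of the 28 pairs of members the 1 other pair above 0.6 was Cyp2e1 and Fmo2 at 0.67. These values describe the rats and share each rat's array and its scaling. With the log2 summed club cell markers, which include no member, r was 0.82 for Cyp2f4, 0.75 for Cyp2a3 and 0.79 for Cyp2s1, while it was 0.14 for Cyp4b1. With the summed endothelial markers r was -0.80, -0.90 and -0.50 for the first 3 genes and -0.44 for Cyp4b1. For Cyp2f4, Cyp2a3 and Cyp2s1 in that order, r was -0.79, -0.74 and -0.60 with the alveolar type I cell markers and 0.59, 0.68 and 0.39 with the heart muscle markers. With the ciliated cell markers it was 0.51, 0.46 and 0.49. A sum follows mostly its brightest features, so the r of different lists are not set against each other. In the ciliated sum this was Tppp3, at a mean level of 5.95 in control rats, beside 2.06 for Dynlrb2, the next. Foxj1, a dimmer marker of that list, had r = 0.89 with Cyp2s1. The genes with the most similar pattern were Ccl19 (r = 0.94), Ccdc103 and Sntn for Cyp2f4, Dnai2 (r = 0.94), Cfap161 and Chst9 for Cyp2a3, and Foxj1 (r = 0.89) and Scgb3a2 for Cyp2s1. For Cyp4b1 they were Ndufb8 (r = 0.74), Polr3b and Atp8b1, the first of these at a lower r than the closest gene of every other member. For each member such genes were picked as the highest r among the 12500 genes with a symbol. How high an r such a pick would reach for unrelated genes was not tested.

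**Figure D3:**
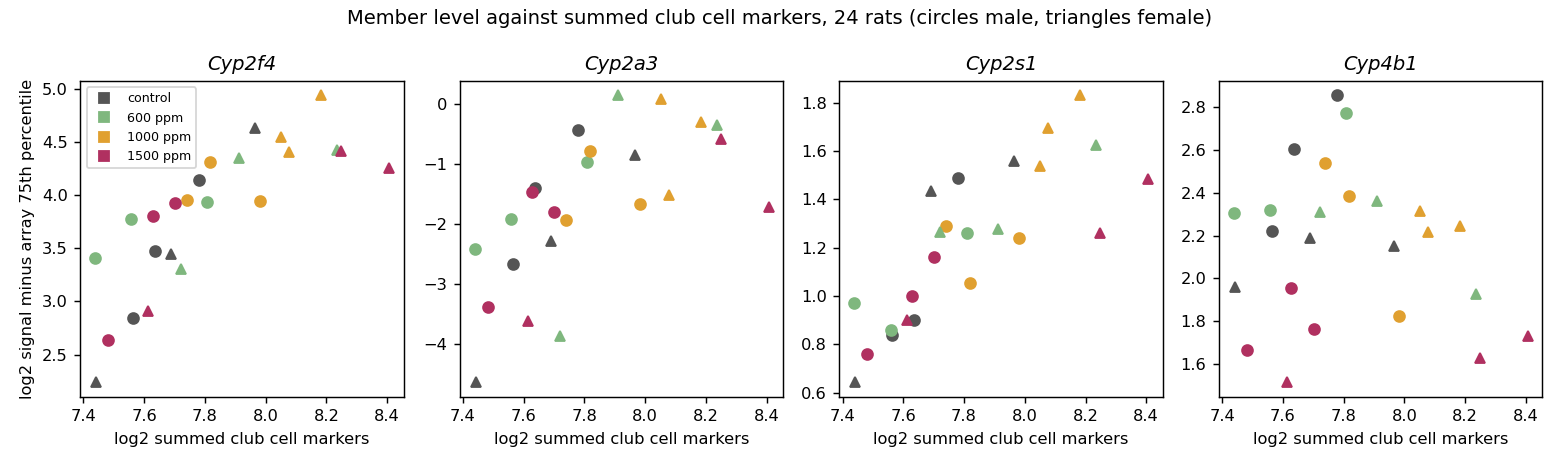
Level of Cyp2f4, Cyp2a3, Cyp2s1 and Cyp4b1 (log2 signal minus the array's 75th percentile, y axes) against the log2 summed level of 7 club cell markers (x axes) in 24 rats, colored by dose, with circles for males and triangles for females. The first 3 genes were higher where the markers were higher, and the 6 high-dose rats lie between 1.51 and 1.96 for Cyp4b1, a range that 1 rat at 600 ppm and 1 at 1000 ppm share.

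**Figure D4:**
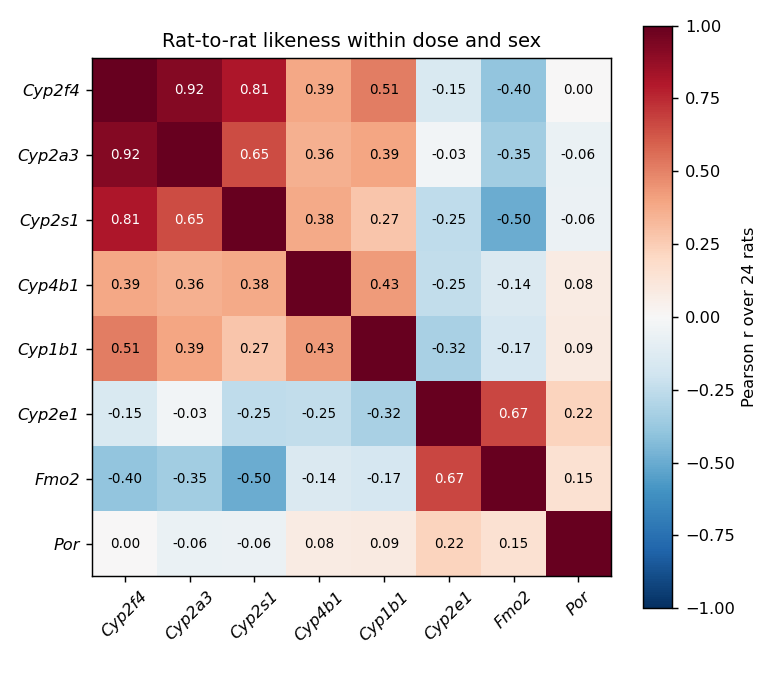
Pearson r between the members over 24 rats after the mean of each dose and sex was subtracted, from -1 (blue) to 1 (red). Cyp2f4, Cyp2a3 and Cyp2s1 form one block with r of 0.65 to 0.92, and Cyp2e1 and Fmo2 are a pair at 0.67.

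Por, the electron donor of all microsomal P450s, had a level of 1.08 to 1.56 (median 1.30) in control rats, 1.36 to 1.60 (median 1.48) at 600 ppm, 1.27 to 1.72 (median 1.62) at 1000 ppm and 0.93 to 1.40 (median 1.32) at 1500 ppm. At 1000 ppm 5 of 6 rats were above every control rat. The middle-dose difference was 0.28 (SE 0.09, 95% interval 0.08 to 0.48), or 1.21-fold, so the gene was under the 1.5-fold threshold and was not called. Its limma p was 0.00744 with an adjusted p of 0.516, and the exact permutation p was 0.0260 (two-sided). It was 0.31 with the slide as a fixed block (SE 0.19) and 0.29 as a random block (SE 0.12). The difference was 0.18 (-0.01 to 0.38) at 600 ppm and -0.04 (-0.23 to 0.16) at 1500 ppm.

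Fmo2, a gene of the flavin-containing monooxygenase family, had a level of 5.09 to 5.81 (median 5.25) in control rats and 4.90 to 5.29 (median 5.12) at 1500 ppm, and 3 of 6 high-dose rats were below every control rat. Its RNA was measured, and whether these rats make active Fmo2 enzyme was not tested. The high-dose difference of Fmo2 was -0.27 (95% interval -0.55 to 0.02), and the gene's second feature gave -0.20. Its slope was -0.20 per 1000 ppm (SE 0.09, limma adjusted p = 0.582). At 600 and 1000 ppm the difference was 0.16 (-0.13 to 0.44) and -0.10 (-0.38 to 0.19). Cyp2e1, which oxidizes ethanol and other small organic molecules, had a level of 0.50 to 1.69 (median 1.22) in control rats and overlapped them at every dose. Its differences were 0.39 (-0.10 to 0.87), -0.08 (-0.56 to 0.41) and 0.18 (-0.30 to 0.66) at 600, 1000 and 1500 ppm. The genes most like Fmo2 over the 24 rats were Mknk2 (r = 0.86), Invs and Daam1, those most like Cyp2e1 were Prodh (r = 0.82) and Crebl2, and those most like Por were Sgsm3 (r = 0.81), Slx1b and Suv39h1.

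**Figure D5:**
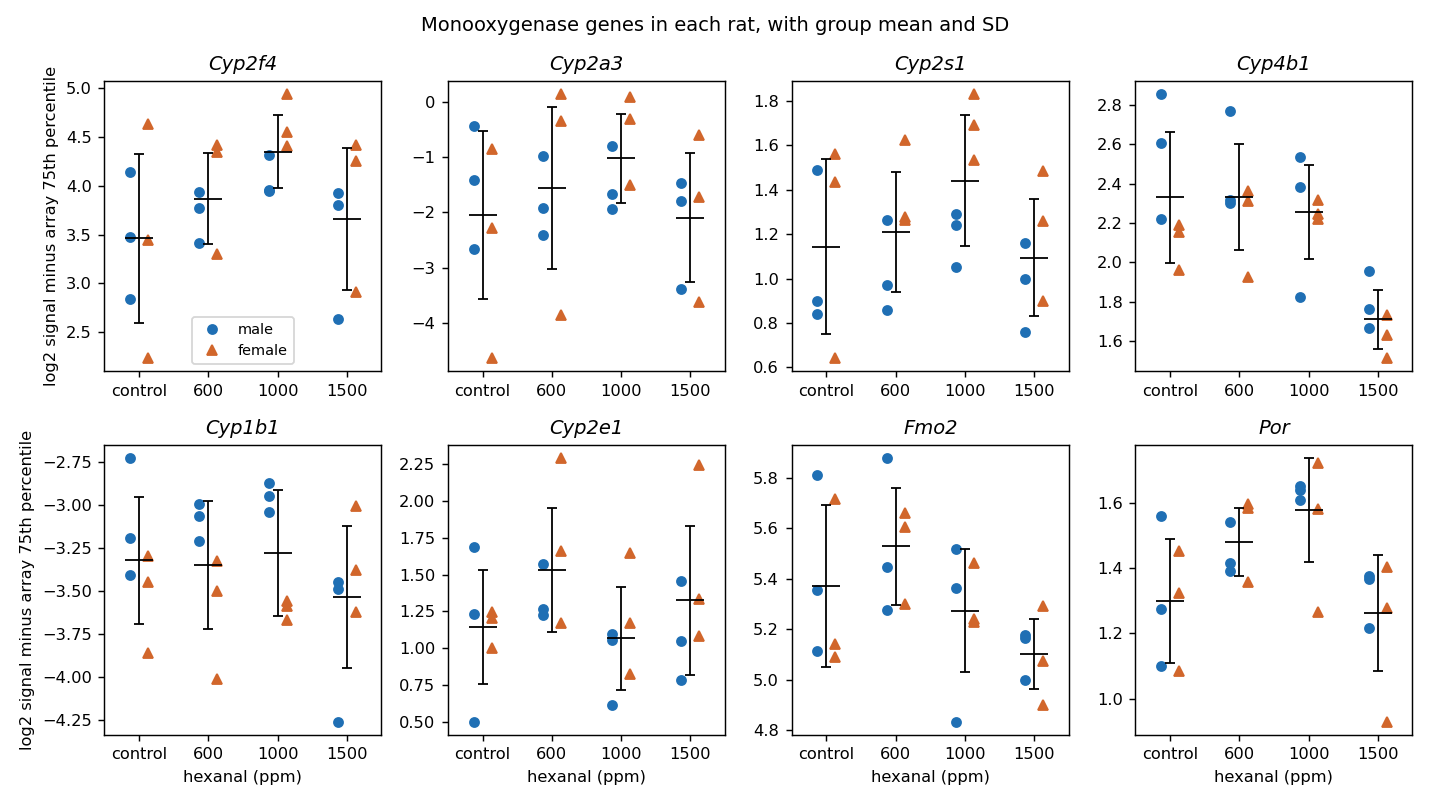
Level of the 8 genes (log2 signal minus the array's 75th percentile, y axes, each with its own range) in each rat by dose (x axes), with circles for males, triangles for females and bars for the mean and SD of 6 rats. For Cyp4b1 the highest high-dose rat (1.956) lies just below the lowest control rat (1.960), and the spread within groups is widest for Cyp2a3.

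The Ahr targets Cyp1a1 and Cyp1b1 oxidize polycyclic aromatic hydrocarbons and are commonly read as markers of exposure to Ahr activators. Cyp1a1 was well above background on 2 of 6 arrays in each of the 4 groups, with levels of -8.96 to -5.21 in control rats and -8.61 to -5.09, -8.35 to -5.60 and -8.20 to -5.07 at 600, 1000 and 1500 ppm. No difference was tested for it, and the detected share was the same in each group. Cyp1b1 had a level of -3.86 to -2.73 (median -3.35) in control rats, and its differences were -0.03 (95% interval -0.47 to 0.41), 0.04 (-0.39 to 0.48) and -0.21 (-0.65 to 0.23) at 600, 1000 and 1500 ppm. Cybrd1 (r = 0.80), Prrx1 and Lgi4 had the pattern most like that of Cyp1b1.

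Cyp1b1 was the 1 of 8 genes whose high-dose difference was called as different between the sexes, beside 11.2% of all features, a share near that of the members. In males its mean was -3.11 ± 0.35 (SD, n = 3) in control rats and -3.73 ± 0.46 at 1500 ppm, and in females it was -3.54 ± 0.29 and -3.34 ± 0.31. All 3 high-dose males (-4.26 to -3.45) were below the 3 control males (-3.41 to -2.73), while the female groups overlapped. The interaction was -0.82 (male minus female, SE 0.32, limma adjusted p = 0.146). The call was lost with normexp background correction, where the interaction was -0.19, in the authors' table without scaling, with the slide as a fixed block, and when control rat 1 or 21 or 1500 ppm rat 18 or 37 was left out. An adjusted p under 0.05 for this interaction was found for 4.97% of all features and for none of the 8. In the interactions at 600 and 1000 ppm 0 of the 8 were called, beside 1.98% and 4.57% of features, and 0 had an unadjusted limma p under 0.05, beside 5.02% and 9.43%.

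Over all doses, 0 of the 8 genes were called as different between males and females, beside 3.86% of features. By the unadjusted limma p alone 3 of 8, Cyp1b1, Cyp2s1 and Cyp4b1, were under 0.05, beside 37.6% of features. By the adjusted p alone 1 of 8 differed, Cyp2s1, beside 24.8% of features. Cyp2s1 had a mean of 1.07 ± 0.22 (SD, n = 12) in males and 1.38 ± 0.34 in females, a difference of -0.31 (SE 0.11, limma adjusted p = 0.0385). With the slide as a random block the SE of this difference was 0.13. In control rats alone the mean was 1.08 ± 0.36 (SD, n = 3) in males and 1.21 ± 0.50 in females. Every slide held 1 sex, so sex and slide could be told apart only through the spread between slides.

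Of 124 other genes of the pathway, 115 were on the array and 90 were tested. They comprised other P450s, flavin monooxygenases, electron donors and heme enzymes, receptors, other Ahr targets and downstream conjugating enzymes. The called genes were 0 higher and 2 lower at 600 ppm, 2 higher and 1 lower at 1000 ppm and 0 higher and 2 lower at 1500 ppm. This is 2.22%, 3.33% and 2.22% of the 90, beside 0.607%, 1.63% and 1.23% of all features. None of the 90 had an adjusted p under 0.05. Their median differences were 0.03, 0.01 and -0.03. Of the 22 electron donors, heme enzymes and P450 partners, the 13 receptors and regulators, the 4 other flavin monooxygenases and the 4 other Ahr targets, 0 were called at any dose.

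Cyp17a1, a P450 of steroid synthesis, was called lower at all 3 doses, with differences of -0.82, -0.71 and -0.70 (SE 0.29). It was dim, with a mean of -5.16 ± 0.77 (SD, n = 6) in control rats, and was well above background on 6 control arrays and on 4, 5 and 5 arrays at the rising doses. Cyp2r1, a vitamin D 25-hydroxylase, was called lower at 600 ppm (-0.64) and 1500 ppm (-0.61, SE 0.27) at a control mean of -5.82, and was well above background on 3 arrays at 600 ppm. Cyp4f4, a P450 that hydroxylates leukotrienes and fatty acids, was called higher at 1000 ppm (1.14, SE 0.51) at a control mean of -6.44 and was well above background on 4 control arrays. Gstm1, a glutathione transferase, was called higher at 1000 ppm (0.61, SE 0.21), from 0.94 ± 0.41 to 1.55 ± 0.29 (SD, n = 6), and was well above background on all arrays of both groups.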

How the data were processed

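The authors deposited the intensities of each array as Agilent Feature Extraction 11.5.1.1 wrote them, with the background subtracted and no scaling from array to array. The authors' series table holds the same intensities (at least 99.69% of features equal within 0.1%). Groups came from the labels.

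Spots other than controls (42877) were averaged, without outlier flags, into 30367 features. Accessions gave a symbol to 18355 of these (60.44%), for 15443 symbols, through a GRCr8 gene table used for names. The log2 signal minus the array's 75th percentile was used. A feature was kept if any group had it well above background on 5 or more of its 6 arrays (23622), and a gene was represented by its brightest feature (21261). R 4.3.3 and limma 3.58.1 were used on all 24 arrays, with doses, then sex plus dose, then 8 groups of dose and sex, and the fits were tested on simulated data. The methods' t-test, normexp (offset 50), quantile and median scaling, the unscaled table, no or stricter filters, sex and slide terms, array weights, control and 1 dose only, each feature counted and leaving out each rat were alternatives.

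The members and gene lists were chosen with earlier results of these data known. All members were named, as were pathway genes called at any dose and, per member, the 3 genes with the highest r over 24 rats after dose-by-sex means were removed, of which 2 are not reported here. Slides were read from the array layout.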

Additional observations from a re-analysis of the deposited data

Results flagged for a closer look

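Por in 1000 ppm rat 31, a female, was far below the other middle-dose rats at 1.27. Its gap to the next rat was 0.692 of the range of the group, above Dixon's critical value for 6 rats. Of 32 groups of 6 tested in this way, this was the 1 that passed, and chance flags about 1 in 20. The other 5 middle-dose rats lay between 1.58 and 1.72.

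The high-dose difference of Cyp1b1 differed between the sexes by -0.82 (male minus female) in the interaction test (limma unadjusted p = 0.0183, adjusted p = 0.146). It was -0.62 in males and 0.20 in females. With normexp background correction the interaction was -0.19.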

How the results depend on the processing

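The count of members called at 1000 ppm was 1 and fell to 0 by adjusted p, with the slide as a fixed block and with the slide as a random block. Leaving out each rat in turn gave 0 to 1, with 0 without control rat 23. The count at 1500 ppm was 1 and was 0 by adjusted p, with array weights (Cyp4b1 at -0.49), and with the slide as a fixed or a random block. Leaving out each rat gave 0 to 1, with 0 without control rat 1 (-0.52), control rat 3 (-0.57) or 1500 ppm rat 38 (-0.58), where Cyp4b1 fell under the 1.5-fold threshold. The count at 600 ppm was 0 under every alternative. The members differing between the sexes in their high-dose effect were 1, and 0 by adjusted p, with the authors' table without scaling, with normexp correction and with the slide as a fixed block. Leaving out each rat gave 0 to 1, with 0 without control rats 1 or 21 or 1500 ppm rats 18 or 37. The members with a sex difference were 0, and 1 by adjusted p.

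Of 1400 values of single members under alternatives, 16 lost a call, 7 that were never called changed sign by over 1 SD between rats (all with the slide as a fixed block), and 1377 stayed on the same side of the threshold. Most of these belong to results that were not called: the 3 called results had 105 of the values and kept the call in 89. No called difference from control changed sign. Of 24 differences from control, 14 changed sign in at least 1 setting other than leaving out a rat, none of them called. Normexp correction moved the median of all features by -0.12 at 1000 ppm. The methods' t-test called 0, 1 and 1 members at 600, 1000 and 1500 ppm by the study's threshold, the same genes, and 0 at each dose after Benjamini-Hochberg adjustment. No paired analysis was possible because rat numbers are not shared between groups. Why these settings changed the calls was not tested.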

Other observations

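Cyp2b2, the close relative of Cyp2b1 that shares most of its coding sequence, had 2 features and was named after its values were seen. Feature sequences were not used here, so whether they also bind Cyp2b1 RNA was not tested. Its level was 3.22 to 3.94 (median 3.72) in control rats and 3.06 to 3.51 (median 3.33) at 1500 ppm. The high-dose difference was -0.35 (SE 0.10, limma adjusted p = 0.446), under the 1.5-fold threshold, and the second feature gave -0.41 (SE 0.16). At 600 ppm the first feature was higher by 0.27 and the second by 0.17, and at 1000 ppm by 0.10 and 0.08.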
